A study of Mus musculus with 3 samples.

Results

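The TNF superfamily of brain microvascular fragments was examined as 44 genes, 17 ligands and 27 receptors, out of 56941 genes in the count table. Members were taken by symbol: every gene named Tnfsf or Tnfrsf with a number and at most 1 letter, together with Cd40, Cd40lg, Fas, Fasl, Cd27, Cd70, Ltbr, Lta, Ltb, Eda, Edar, Eda2r and Ngfr. Tnf itself and Relt, which also belong to the superfamily, carry other symbols and are given beside the members. RNA was taken from the brains of adult wild-type mice of strain C57BL/6J, and the 3 libraries form a single group with no treatment and no comparison tissue. The labels give neither sex nor exact age. A fragment is a short length of small vessel that keeps endothelium, mural cells and adhering cells together, so a transcript cannot be assigned to a cell type.

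Ligands of this superfamily are mostly membrane proteins that act as trimers and can be cut from the cell surface, and their receptors carry repeated cysteine-rich domains outside the cell. Receptors with a cytoplasmic death domain recruit adaptors such as Tradd and Fadd, which lead to NF-kappaB or to caspase-8. Most of the others bind TRAF proteins directly and feed the classical or the alternative NF-kappaB pathway, while decoys bind ligand without passing on its signal. In brain vessels the family is known for the response of endothelium to TNF, which includes leukocyte adhesion molecules and looser junctions, and for the receptors TROY (Tnfrsf19) and DR6 (Tnfrsf21), which take part in the growth of brain vessels in mouse and zebrafish.

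Depth was 128428355 to 150449539 counts a library, and levels are given as CPM, counts for each 1000000 of the library, scaled for composition. A count of 0 allows a level of up to 0.0199 to 0.0234 CPM (3 counts of the library total), and this covers counting error only. All 6 endothelial markers looked up were detected, with summed levels of 10138.5 to 12570.7 CPM. The 5 microglial markers had 4056 to 5478 CPM, the 5 pericyte markers 3003 to 3171 CPM, the 4 smooth muscle markers 4576 to 5256 CPM and the 4 choroid plexus markers 5005 to 8109 CPM. The 4 astrocyte markers, all detected, had 1290, 1384 and 681 CPM in replicates 1, 2 and 3. Of these, Slc1a2 alone had 1210, 1303 and 627 CPM. Leukocyte markers were low, with 7.40 to 9.14 CPM for 8 T and NK cell genes, of which 1 was detected, and 11.4 to 16.5 CPM for 5 B and plasma cell genes, of which 3 were detected. The 4 neutrophil genes had 2.93 to 13.8 CPM with 1 detected, and the 4 border macrophage genes 13.6 to 23.8 CPM with 2 detected. In whole fragments, fewer cells of a type and less RNA per cell cannot be told apart.

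At 1 CPM or more in every library, the limit used here for detection, 18 of 27 receptors and 6 of 17 ligands were found. Together these are 24 of 44 members (54.5%), beside 61.6% of all protein coding genes and 23.2% of all genes in the table. The share of ligands was 35.3%, and that of receptors, 66.7%, was near the share of protein coding genes. At 10 CPM or more in every library stood 13 members (29.5%), which were 11 receptors (40.7%) and 2 ligands (11.8%), beside 44.8% of protein coding genes. The median level of the receptors was 2.64 ± 0.12 on the log2(CPM + 1) scale and that of the ligands 0.20 ± 0.10 (SD of the library medians, n = 3), beside 3.00 ± 0.04 for all protein coding genes and 4.79 ± 0.01 for all detected genes. The pseudocount of 1 narrows differences among genes near 0. Receptor counts summed to 1156 ± 33.1 CPM and ligand counts to 190 ± 29.8 CPM.

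**Figure D1:**
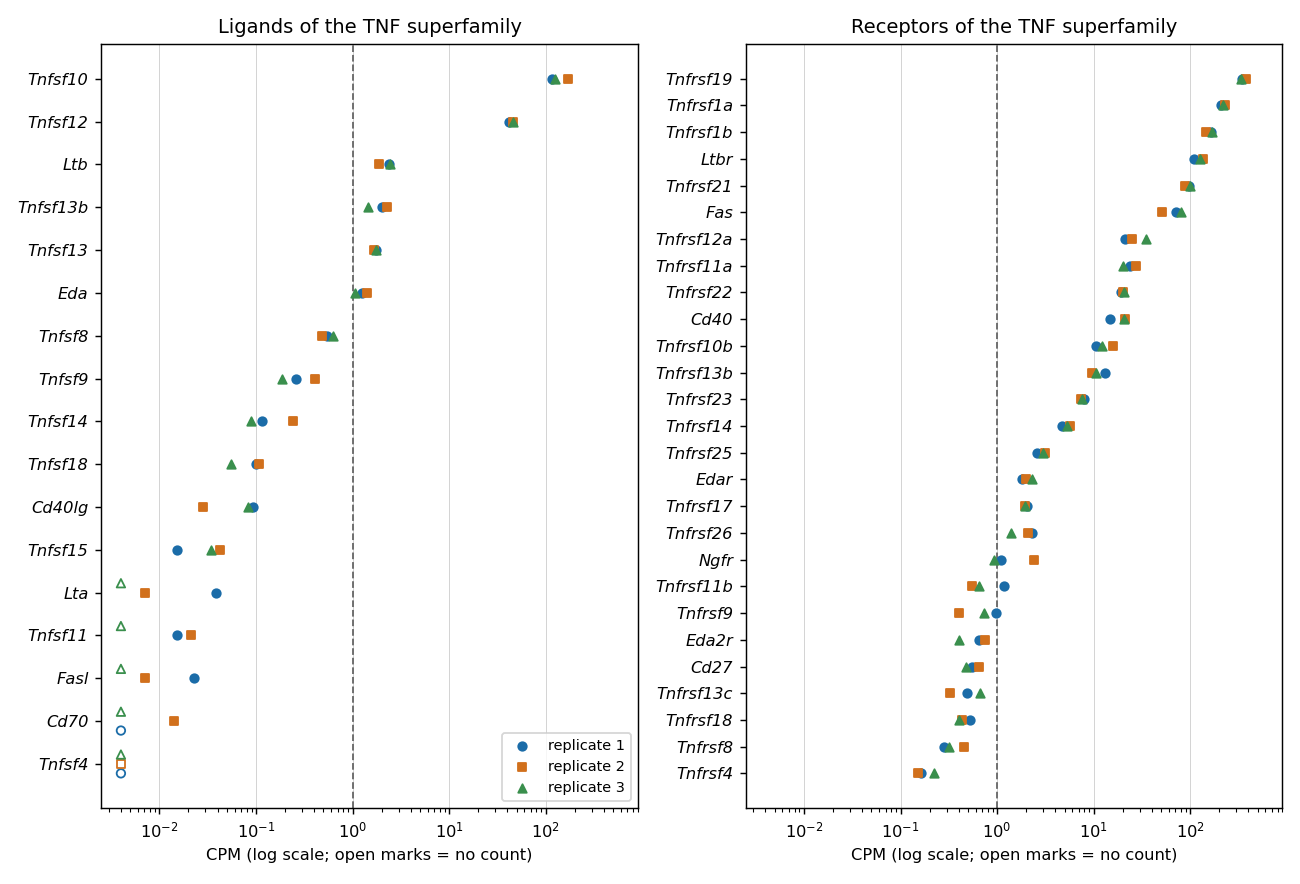
Level of each of the 44 members in CPM on a log axis, ligands on the left and receptors on the right, with 1 mark for each of 3 libraries; open marks at the left edge stand for no count and the dashed line is 1 CPM. Of the ligands, 6 lie to the right of the line in all 3 libraries, and of the receptors 18.

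Among the ligands, only TRAIL and TWEAK had 10 CPM or more in every library. Tnfsf10, which encodes TRAIL, a ligand of death receptors, had 116, 168 and 124 CPM in replicates 1, 2 and 3. Replicate 2 was the highest library and 1.45 times the lowest. Tnfsf12, which encodes TWEAK, a ligand with effects on vessel growth and tissue repair, had 42.1, 46.3 and 46.4 CPM, and its libraries differed by 1.10-fold. Of the exonic length of Tnfsf12, 48.3% is shared on the same strand with Tnfsfm13, a read-through gene that joins Tnfsf12 to Tnfsf13. Tnfsfm13 had 2.11 ± 0.03 CPM (n = 3). How reads in shared exons were assigned is not given in the sources used here, so the counts of these genes are uncertain.

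The 4 other detected ligands lay between 1 and 3 CPM. Ltb, lymphotoxin beta, which forms a membrane trimer with Lta, had 2.39, 1.90 and 2.46 CPM. Tnfsf13b, the B cell survival factor BAFF, had 2.03, 2.29 and 1.43 CPM, and its relative Tnfsf13 (APRIL) had 1.74, 1.66 and 1.73 CPM. Of these, Tnfsf13b varied most between libraries, by 1.60-fold, with replicate 3 low. The exons of Tnfsf13 overlap Tnfsfm13 over 60.0% of their length. Eda, ectodysplasin, a ligand of skin appendage development, had 1.25, 1.39 and 1.07 CPM.

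None of the 8 co-stimulatory ligands, which act mainly between T cells and the cells they meet, reached 1 CPM in any library. Tnfsf8 was the most counted, with 71, 68 and 92 counts, which is 0.555 ± 0.074 CPM (n = 3). Tnfsf9 had 34, 57 and 27 counts, Tnfsf14 (LIGHT) 15, 34 and 13, Tnfsf18 13, 15 and 8, and Cd40lg 12, 4 and 12. Tnfsf15 had 2, 6 and 5 counts, Cd70 had 0, 2 and 0, and Tnfsf4 (OX40 ligand) had no count at all. The T cell markers Cd3e, Cd3d and Cd3g had 0.335 ± 0.184, 0.596 ± 0.111 and 0.595 ± 0.151 CPM (n = 3). Cd4 had 0.942 ± 0.079 CPM, and Trac, the only gene of the T and NK cell list that was detected, had 4.81 ± 0.64 CPM (n = 3). The death ligand Fasl had 3, 1 and 0 counts, Lta (lymphotoxin alpha) 5, 1 and 0, and Tnfsf11 (RANKL, the osteoclast factor) 2, 3 and 0. Tnf, outside the rule, had 22, 23 and 29 counts, or 0.169, 0.165 and 0.200 CPM. Tnfsf9 overlaps Gm11110 on the opposite strand over 14.9% of its exons.

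Of the 7 receptors with a death domain, 6 were detected and 4 had 10 CPM or more in every library. Tnfrsf1a, TNF receptor 1, had 210, 228 and 218 CPM, and the libraries differed by 1.09-fold. Tnfrsf21, death receptor DR6, had 96.0, 87.7 and 98.5 CPM. Fas, the receptor of Fas ligand, had 71.1, 50.9 and 80.9 CPM. Replicate 2 was low and replicate 3 high, a ratio of 1.59 between them.

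Tnfrsf10b, the mouse TRAIL receptor that signals death, had 10.6, 15.9 and 12.2 CPM and was highest in replicate 2, as its ligand Tnfsf10 was. Of the 50-base words in the longest coding transcript of Tnfrsf10b, 9.74% also occur in transcripts of other genes. Tnfrsf25 (DR3) had 2.60, 3.17 and 2.96 CPM and Edar, the ectodysplasin receptor, 1.79, 2.01 and 2.29 CPM. Ngfr, the receptor p75, had 1.11, 2.39 and 0.923 CPM and was under the limit in replicate 3. Its high library, replicate 2, also held 172418 counts of the pituitary hormone gene Gh, against 14 and 38 in replicates 1 and 3; the part of this in the Ngfr level was not tested. Bdnf, a growth factor outside the rule, had 0.194 ± 0.040 CPM (n = 3).

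Among the 13 receptors grouped here as TRAF-binding, 7 were detected, 6 of them at 10 CPM or more in every library. The receptors of BAFF and APRIL were grouped apart and are given below. Tnfrsf19, which encodes TROY, had 340, 380 and 339 CPM, the largest count of any member, and took 26.2% of all counts of the family. Tnfrsf1b, TNF receptor 2, had 163, 145 and 170 CPM and was lowest in replicate 2, which also had the lowest sum of microglial markers (5478, 4056 and 4834 CPM in replicates 1, 2 and 3). The share of that in the Tnfrsf1b level was not tested. Ltbr, the lymphotoxin beta receptor, an inducer of the alternative NF-kappaB pathway, had 109, 135 and 125 CPM.

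Tnfrsf12a (Fn14, the receptor of TWEAK, known as a gene induced by growth factors and injury) had 20.9, 25.0 and 34.6 CPM. Replicate 3 was 1.66 times replicate 1, the widest ratio among the 24 detected members. Tnfrsf11a (RANK) had 23.9, 27.2 and 20.3 CPM. Cd40, which antigen-presenting cells and activated endothelium carry, had 14.6, 21.1 and 20.7 CPM, with replicate 1 the low library. Endothelial markers summed lowest in replicate 1 too, at 10138.5, 12234 and 12570.7 CPM in replicates 1, 2 and 3, and their part in the Cd40 level was not tested. Tnfrsf14 (HVEM) had 4.74, 5.74 and 5.29 CPM.

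The other 6 receptors of the TRAF-binding group stayed under 1 CPM in every library. They were Tnfrsf9 (4-1BB) at 0.702 ± 0.281 CPM, Eda2r at 0.601 ± 0.177, Cd27 at 0.557 ± 0.088, Tnfrsf18 (GITR) at 0.453 ± 0.063, Tnfrsf8 (CD30) at 0.353 ± 0.092 and Tnfrsf4 (OX40) at 0.177 ± 0.038 CPM (n = 3). Apart from Eda2r, these are receptors best known from lymphocytes. Tnfrsf18 overlaps Gm16008 on the opposite strand over 27.2% of its exons, and since the strand setting of the counting is not stated, its count is uncertain.

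The receptors of BAFF and APRIL gave unequal levels. Tnfrsf13b (TACI) had 13.1, 9.64 and 10.5 CPM and Tnfrsf17 (BCMA, the plasma cell receptor) 2.02, 1.97 and 1.92 CPM, whereas Tnfrsf13c, the BAFF receptor of B cells, had 0.484, 0.329 and 0.661 CPM and was not detected. Scaled by exonic length, Tnfrsf13b stood 11.4 to 21.1 times above Tnfrsf13c in the single libraries. The B cell markers Cd79a, Cd79b and Ms4a1 had 4.48 ± 0.80, 6.15 ± 0.80 and 2.11 ± 0.59 CPM (n = 3). The summed B and plasma cell markers were 15.2, 11.4 and 16.5 CPM in replicates 1, 2 and 3, and their part in the Tnfrsf13b level was not tested.

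Of the 4 decoys and receptors without a death domain, 3 were detected. Tnfrsf22 and Tnfrsf23 are mouse genes for TRAIL-binding receptors that carry no death signal, and with Tnfrsf26 they form a run of neighbouring genes. Tnfrsf22 had 19.1, 20.0 and 20.6 CPM, Tnfrsf23 had 7.91, 7.43 and 7.63 CPM and Tnfrsf26 had 2.31, 2.11 and 1.39 CPM. Sequence shared between these paralogs makes the split of their reads uncertain. Of the 50-base words of the longest coding transcript, 27.7% in Tnfrsf22 and 33.4% in Tnfrsf23 occur in transcripts of other genes, chiefly of each other. Tnfrsf11b, osteoprotegerin, the secreted decoy for RANKL and TRAIL, had 1.18, 0.544 and 0.654 CPM.

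Scaled by exonic length, TNF receptor 1 and TROY led the family. Tnfrsf1a had 84.4 ± 3.62 and Tnfrsf19 74.5 ± 4.97 CPM per kilobase (n = 3), and Tnfrsf1a was the higher in 3 of 3 libraries with ranges that did not overlap. Ltbr followed at 52.2 ± 5.69, then Tnfrsf1b at 41.7 ± 3.40 and Fas at 32.8 ± 7.42 CPM per kilobase. The ranges of Tnfrsf1b and Fas overlapped. Tnfsf12 at 29.6 ± 1.64, Tnfsf10 at 25.9 ± 5.33 and Tnfrsf21 at 22.9 ± 1.37 CPM per kilobase came next. The ranges of Fas, Tnfsf12, Tnfsf10 and Tnfrsf21 overlapped from each to the next. Tnfrsf12a at 13.9 ± 3.66 stood clear of Cd40 at 5.53 ± 1.07 CPM per kilobase.

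The first 5 of these lay at percentiles 88.5 to 96.1 of the 12814 detected genes with a known length. TNF receptor 1 exceeded TNF receptor 2 by 2.04 ± 0.25 times per kilobase (n = 3), from 1.89 to 2.33 in the single libraries. From Cd40 down to Tnfrsf14 the neighbouring ranges overlapped at every step, and Eda, at 0.181 ± 0.024 CPM per kilobase, was the last of the 24. With the length of the longest coding transcript in place of the exonic length, Tnfrsf1a, Tnfrsf19 and Ltbr kept ranks 1, 2 and 3. Tnfrsf12a then had 27.3 and Tnfrsf23 5.19 CPM per kilobase, against 13.9 and 1.93 by exonic length, so their places depend on the transcript model.

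**Figure D2:**
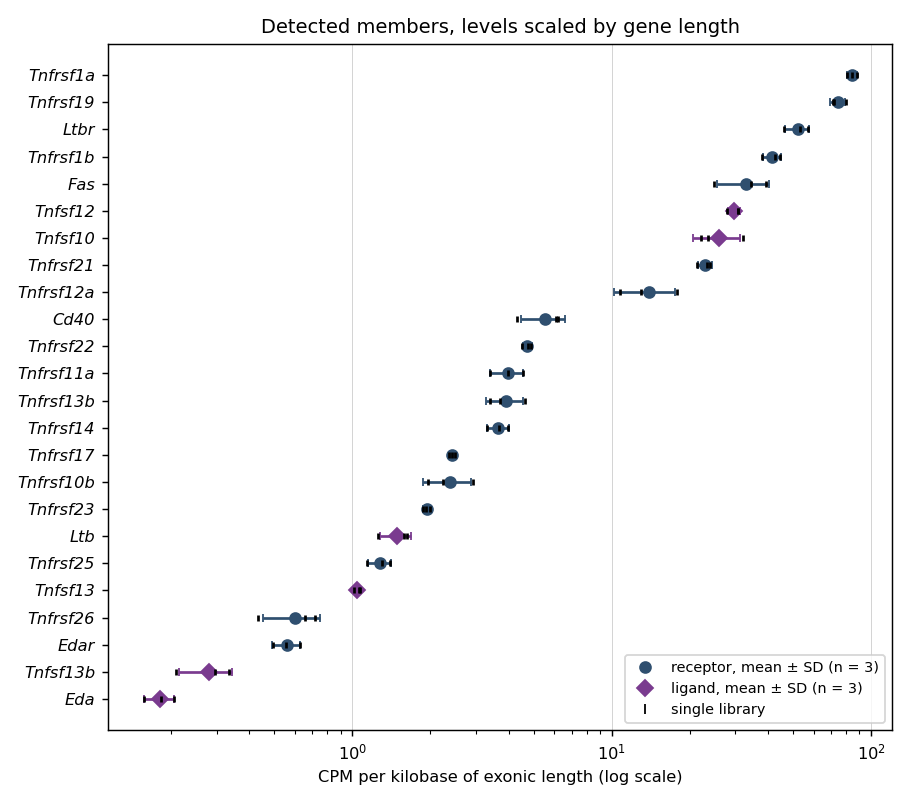
The 24 detected members in the order of their level in CPM per kilobase of exonic length on a log axis, with the mean and SD over 3 libraries and each library as a tick. Receptors fill the first 5 places, Tnfrsf1a to Fas, and Tnfsf12 and Tnfsf10 are the first ligands.

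Ligand and receptor were set side by side in 26 textbook pairs. In 8 pairs both were detected, in 9 only the receptor, in 3 only the ligand and in 6 neither. Per kilobase, the receptor was the higher of the pair in every library for 6 of the 8 pairs with both detected. Ltbr exceeded Ltb by 5.14 ± 0.34 on the log2 scale (n = 3), Tnfrsf13b exceeded Tnfsf13b by 3.82 ± 0.42 and Edar exceeded Eda by 1.62 ± 0.33. By exonic length, the pairs of TRAIL and TWEAK ran the other way in 3 of 3 libraries. Tnfrsf10b was below Tnfsf10, with a log2 difference of -3.45 ± 0.05, and Tnfrsf12a was below Tnfsf12, with -1.13 ± 0.31 (n = 3). By the longest coding transcript, the means of Tnfrsf12a and Tnfsf12 were closer, at 27.3 and 31.3 CPM per kilobase. The size of the TWEAK difference thus depends on the transcript model, and exons shared with Tnfsfm13 leave the count of Tnfsf12 uncertain. With 3 libraries, a test on the sign alone could not go below a p of 0.25, so none is given.

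Of the 13 detected receptors in the pair list, 6 had a detected ligand among the members and 7 had none. The 7 were Tnfrsf1a, Tnfrsf1b, Fas, Cd40, Tnfrsf11a, Tnfrsf14 and Tnfrsf25. Ligands in blood or in cells outside the fragments were not measured. The 5 detected receptors outside the list were Tnfrsf19 and Tnfrsf21, for which no ligand was listed, and Tnfrsf22, Tnfrsf23 and Tnfrsf26. Tnfrsf22 and Tnfrsf23 bind TRAIL but were not paired with Tnfsf10, which was detected. Ltb with Ltbr was counted as a pair with both detected, although Lta, which joins Ltb in its trimer, was not detected. The tallies depend on these choices.

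**Figure D3:**
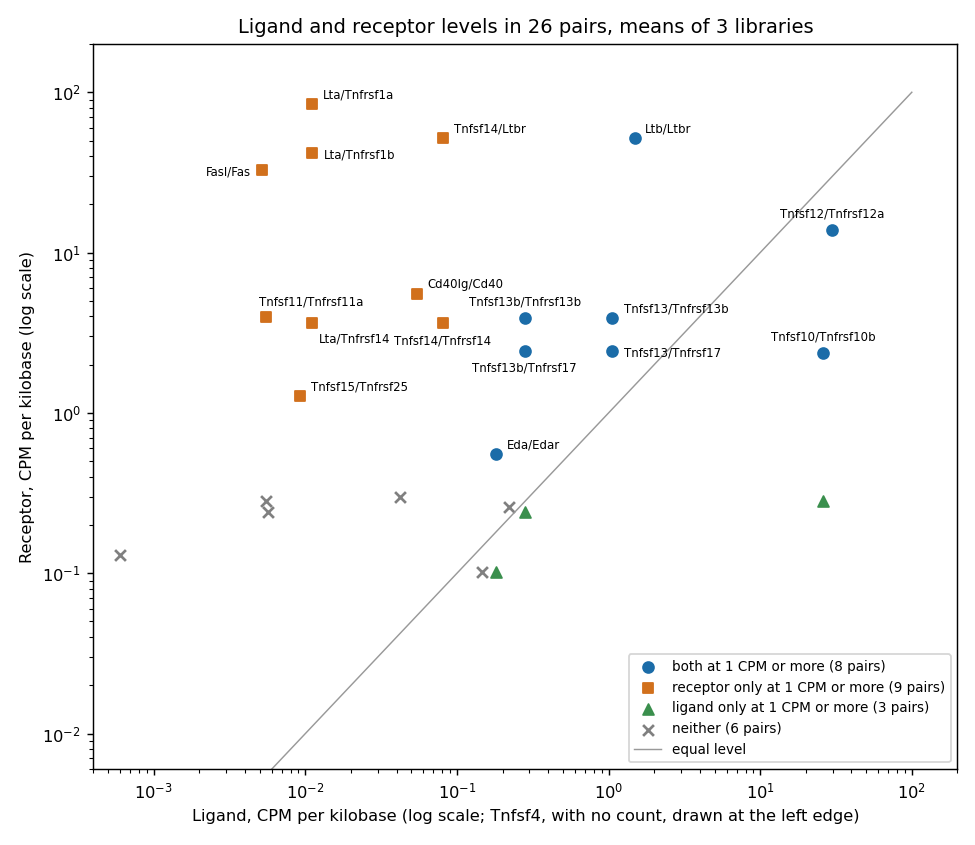
Mean level of ligand (horizontal) and receptor (vertical) in CPM per kilobase of exonic length, both on log axes, for 26 pairs over 3 libraries. Shape and colour show which partner was detected. Of the 8 pairs with both detected, 6 lie above the line of equal level, and those of Tnfsf12 and Tnfsf10 lie below it.

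Promoter windows from RefSeq (build GRCm38.p6, 250 bases before to 50 after the start of a gene) were matched by symbol for 34 members, in 38 windows. The 10 members left unmatched were Cd40, Cd40lg, Cd70, Tnfrsf10b, Tnfrsf11b, Tnfrsf22, Tnfrsf26, Tnfsf4, Tnfsf9 and Tnfsf12. A match is a description of sequence and not a binding site. The hexamer GGGCGG, the core of the GC box, occurred on either strand in 18 of the 38 windows (47.4%), beside 35.7% of all 32851 windows. The core of interferon response elements, GAAA then NN then GAAA, occurred in 4 (10.5%), beside 3.44%. The kappaB consensus occurred in 4 (10.5%), beside 8.46%, and TATAAA in 6 (15.8%), beside 13.6%. The median number of CpG dinucleotides was 12.5 in the 22 windows of detected members and 7 in the 16 windows of members not detected. Over the whole table it was 20 for detected genes and 4 for genes not detected.

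Windows are shown for Tnfrsf19, which had the most counts, for Tnfrsf1b and Tnfrsf12a, which hold several matches, and for Ltb, the detected ligand with a kappaB match. In the sequences, written 5′ to 3′ on the strand of the gene, capitals mark every match to the motifs above on either strand; matches to GGGCGG can overlap each other. Tnfrsf19 (chr14:61037938-61038237, minus strand) holds 13 CpG and 3 matches to GGGCGG. Another window of Tnfrsf19 (chr14:61046806-61047105, minus strand) holds 14 CpG and no match to any of the motifs, and is not shown. Which start gave the counts was not tested. Tnfrsf1b (chr4:145246821-145247120, minus strand) holds 13 CpG, and its capitals are a pair of GGGCGG matches and 1 match to the interferon response core, all on the opposite strand. Tnfrsf12a (chr17:23677400-23677699, minus strand) holds 20 CpG and 5 matches to GGGCGG. Ltb (chr17:35194257-35194556, plus strand) holds 7 CpG and 1 match to the kappaB consensus.
Tnfrsf19: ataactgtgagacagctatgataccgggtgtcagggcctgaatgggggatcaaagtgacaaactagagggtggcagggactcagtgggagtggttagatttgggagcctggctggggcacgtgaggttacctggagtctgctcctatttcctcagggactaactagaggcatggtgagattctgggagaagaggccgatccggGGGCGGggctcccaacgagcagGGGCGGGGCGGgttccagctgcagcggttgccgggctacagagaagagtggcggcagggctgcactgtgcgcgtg
Tnfrsf1b: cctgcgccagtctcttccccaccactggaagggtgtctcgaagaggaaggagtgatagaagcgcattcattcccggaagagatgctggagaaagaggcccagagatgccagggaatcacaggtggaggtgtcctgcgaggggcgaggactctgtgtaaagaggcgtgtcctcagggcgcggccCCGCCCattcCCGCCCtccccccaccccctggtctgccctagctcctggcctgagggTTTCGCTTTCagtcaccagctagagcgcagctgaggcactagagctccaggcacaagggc
Tnfrsf12a: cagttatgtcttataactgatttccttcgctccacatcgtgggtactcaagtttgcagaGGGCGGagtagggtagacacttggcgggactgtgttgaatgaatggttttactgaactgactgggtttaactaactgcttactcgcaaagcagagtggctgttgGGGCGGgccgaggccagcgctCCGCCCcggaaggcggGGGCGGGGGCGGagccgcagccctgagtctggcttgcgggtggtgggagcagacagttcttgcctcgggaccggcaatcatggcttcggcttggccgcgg
Ltb: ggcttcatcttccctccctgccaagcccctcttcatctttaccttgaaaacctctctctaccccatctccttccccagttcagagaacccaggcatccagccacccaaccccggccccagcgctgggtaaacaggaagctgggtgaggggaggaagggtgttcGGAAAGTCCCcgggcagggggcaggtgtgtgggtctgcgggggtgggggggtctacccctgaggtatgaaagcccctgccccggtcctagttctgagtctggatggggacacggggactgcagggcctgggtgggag

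The machinery that carries the signal of these receptors was almost complete. Of 52 genes listed for signalling and ligand release, 49 were detected (94.2%, beside 61.6% of protein coding genes), with a median log2(CPM + 1) of 5.07 ± 0.14 over the libraries (n = 3). Of 26 adaptors and death arm genes, 25 were detected. Those with the most counts were Xiap, an inhibitor of caspases, at 143 ± 26.1 CPM, Cflar, which blocks caspase-8, at 136 ± 9.65, Rbck1 of the linear ubiquitin ligase at 121 ± 10.8 and Traf7 at 102 ± 5.66 CPM. Edaradd, the adaptor of Edar, was not detected, at 16, 15 and 6 counts, although Eda and Edar were.

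All 9 genes of the kinase complexes, which include adaptor and regulatory subunits without kinase activity, were detected. The kinases Ikbkb and Map3k7 (TAK1) had 61.3 ± 6.77 and 60.6 ± 2.14 CPM, and the subunits Tab2 and Ikbkg (NEMO) had 127 ± 2.83 and 44.5 ± 0.934 CPM (n = 3). The sheddases Adam10 and Adam17, which cut ligands and receptors from the membrane, had 307 ± 43.8 and 152 ± 13.3 CPM, and their regulators Rhbdf2 and Rhbdf1 had 83.1 ± 22.2 and 51.2 ± 8.08 CPM (n = 3). All 8 NF-kappaB genes were detected. The inhibitor Nfkbia had 501 ± 154 CPM, Rela 189 ± 27.4, Nfkb1 160 ± 13.4 and Nfkb2 52.6 ± 15.9 CPM (n = 3). Relt, a receptor outside the rule, had 3.26 ± 0.16 CPM.

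No member was called variable between the mice. Of the 44 members, 36 had enough counts to be tested, and edgeR's quasi-likelihood dispersion test, run on 18087 genes, called 0 of them at an adjusted p under 0.05, beside 0.0829% of all genes tested. DESeq2 marked 0 members as dispersion outliers (0.449% of all genes), and edgeR with a robust prior called 0 (0% of all genes). The 8 members not tested were Cd40lg, Cd70, Fasl, Lta, Tnfsf4, Tnfsf11, Tnfsf15 and Tnfsf18. At an unadjusted p under 0.05 stood 3 of the 36, Tnfrsf12a, Fas and Ngfr, beside 5.18% of all genes. Their adjusted p was 0.930 in edgeR. With so few mice a member that was not called may still differ between them. In simulation, the edgeR test recovered only 10% of 200 genes made to differ 2-fold, and 95.5% of 200 at 4-fold. In the real counts, the neutrophil markers S100a9 and S100a8 differed 5.36-fold and 5.15-fold between libraries but were not called. Their adjusted p in edgeR was 0.372 and 0.512. Gh, which differed far more, was called (adjusted p = 0.00171 in edgeR). Whether the 4-fold rate holds for the real counts was not tested. The widest ratio between libraries among the 24 detected members was 1.66. The absence of calls therefore cannot show that these members were equal between the mice.

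Among the 24 detected members the highest library was 1.05 to 1.66 times the lowest, with a median ratio of 1.26, beside 1.20 for all detected genes. A ratio of 1.5 or more was found for 4 of them (16.7%, beside 12.2% of detected genes), and these were Fas, Tnfrsf12a, Tnfsf13b and Tnfrsf26. Replicate 2 was the highest library for 11 members (beside 28.7% of detected genes), replicate 1 for 5 (34.5%) and replicate 3 for 8 (36.8%). With plain library totals as the scale the split was 13, 8 and 3, so the place of replicates 1 and 3 depends on the scaling.

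Replicate 1 was the lowest library for 7 of the 8 NF-kappaB genes, Rel being the exception, beside 11 of the 24 members and 38.6% of all detected genes. The other signalling groups differed among themselves: replicate 1 was the lowest for 12 of 25 detected adaptor and death arm genes, for 2 of 4 release genes and for 1 of 9 genes of the kinase complexes, 6 of which were highest there. Relb had 24.1, 53.0 and 44.8 CPM, Nfkb2 34.3, 63.5 and 60.0 CPM and Nfkbia 330, 543 and 631 CPM in replicates 1, 2 and 3. The feedback genes Tnfaip3 (A20) and Birc3 had 23.2, 37.0 and 46.8 CPM and 26.1, 34.8 and 40.5 CPM, and Rhbdf2 had 61.6, 81.7 and 106 CPM. These 6 genes of the signalling list had an unadjusted p under 0.05, of 51 tested, beside 5.18% of all genes, and the robust prior gave 5. None passed adjustment in edgeR (lowest adjusted p = 0.517, for Relb). Mitochondrial genes held 3.29% of the counts in replicate 1, against 1.75% and 1.65% in replicates 2 and 3; endothelial markers, as given above, were lowest there in sum. Summed neutrophil markers were highest there, at 13.8, 9.92 and 2.93 CPM in replicates 1, 2 and 3. Summed neuronal markers, at 24.2, 14.6 and 12.3 CPM, and the microglial sum given above were highest there too. The neuronal sum followed Snap25, at 15.3, 6.57 and 4.08 CPM, while Syt1 and Rbfox3 differed by 1.11-fold and 1.28-fold. The microglial marker Tmem119 was highest in replicate 3 and the neutrophil marker Retnlg in replicate 2. The other listed markers of these cell types were highest in replicate 1. The part of the mitochondrial share and of the cell type markers in the NF-kappaB levels was not tested. Of the exons of Nfkb2, 18.1% lie opposite other genes.

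**Figure D4:**
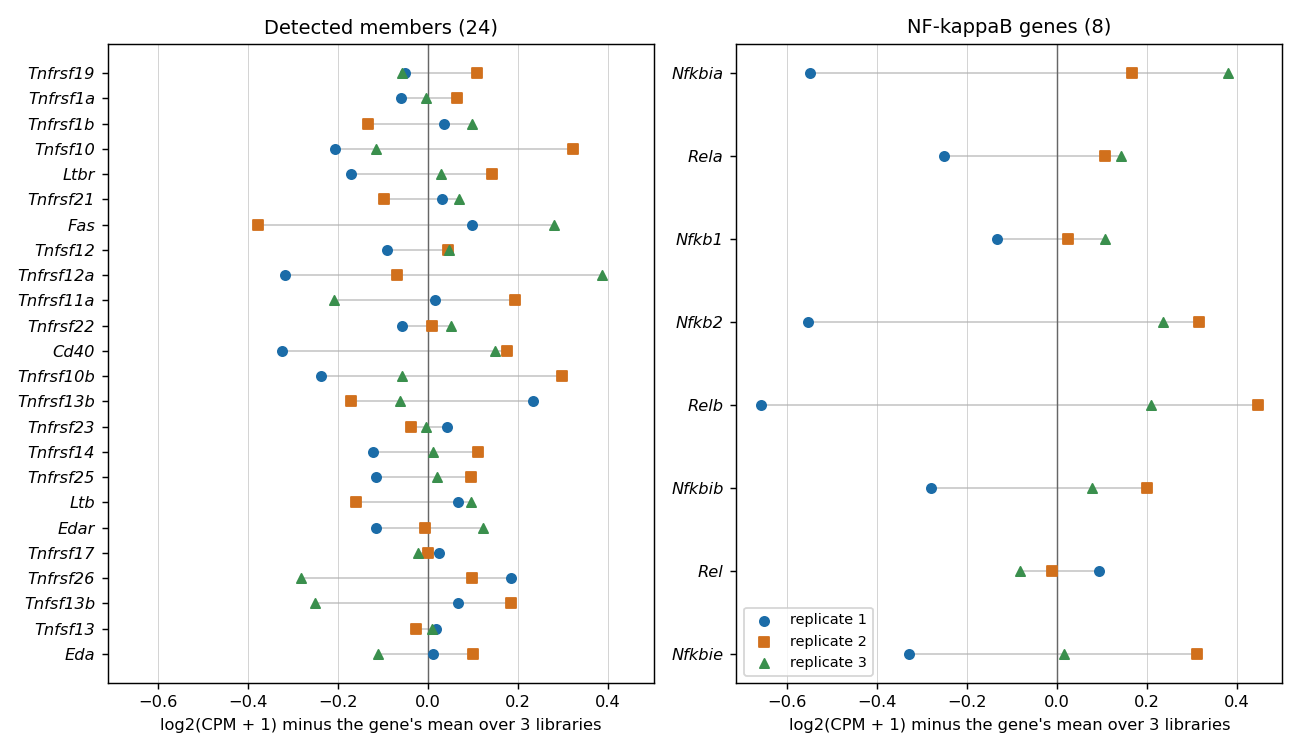
Deviation of each library from the gene's own mean on the log2(CPM + 1) scale, for the 24 detected members (left) and the 8 NF-kappaB genes (right), in order of their mean CPM. Replicate 1 is the lowest mark for 7 of the 8 NF-kappaB genes and for 11 of the 24 members.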

How the data were processed

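Polyadenylated RNA (a stranded kit with paired reads, per the labels) of 3 libraries was analysed from 1 deposited table of whole-number counts per gene, with no normalization by the authors. The submitters' processing notes name featureCounts, Subread 1.4.6-p5 and build GRCm39; the aligner, annotation and strand setting were not given in the sources used here, nor how reads in shared exons were counted. The counts of each library were scaled to CPM with TMM factors (1.01, 1.02 and 0.965; edgeR 4.0.16, R 4.3.3). Pairs of libraries differed by far more than sampling noise (mean chi-square 179 to 252 per gene). The spread between mice was tested across the 18087 genes kept by filterByExpr with an intercept-only quasi-likelihood fit, by an upper-tail F test of each gene's dispersion against the trend with Benjamini-Hochberg adjustment at 0.05, after a test on simulated counts. The design text speaks of 3 mice; if the libraries were not from separate animals, p-values measure technical spread. Exonic lengths, exon overlap and shared words of 50 bases came from GENCODE M21 (GRCm38, matched by symbol for 44 of 44 members), another build than the table's, so no coordinates were joined to the counts. Named in full were members at 10 CPM or more in every library; for signalling genes, the 4 highest of each group, those under 1 CPM and the family genes outside the rule, of which 1 is not reported here, while the 6 with an unadjusted p under 0.05 were chosen after their values were seen. Members and lists were chosen with earlier results of these data known. DESeq2 1.42.0 served for alternatives; Python 3.11.15 and pandas 2.3.3 for lists.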

Additional observations from a re-analysis of the deposited data

How the results depend on the processing

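Detection of the members did not depend on the scaling: 24 were detected with DESeq2 size factors and with plain totals, and 24 to 25 without single replicates, Ngfr being gained without replicate 3. At 0.5 CPM Ngfr and Tnfrsf11b were gained. At 5 CPM 15 members, 2 ligands and 2 pairs with both partners were left. Leaving out single replicates left 6 ligands, 49 signalling genes and 8 pairs each time, and 18 to 19 receptors. The ligand median was -2.05 with a pseudocount of 0.1 CPM, 2.36 with 5 CPM and 1.61 without members under 1 CPM, and 0.14 to 0.24 without single replicates. The receptor median was 2.42, 3.36 and 4.34 under the same 3 settings, 1.74 per kilobase and 2.57 to 2.70 without single replicates. The signalling median was 5.23 with a pseudocount of 5 CPM and 2.89 per kilobase. In each of these the ligand median stayed below the receptor median.

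Over all genes the count varying between mice was 15, against 173 with no filter on low counts, 0 with a robust prior (edgeR), 137 by DESeq2 dispersion outliers, and 7 to 80 without single replicates (7 without replicate 1, 80 without replicate 2, 33 without replicate 3); the cause was not tested. The number of members called was 0 under every one of these settings, with a lowest adjusted p in edgeR of 0.236, without replicate 2, to 0.992, with the robust prior. Because the edgeR test recovered only 10% of simulated 2-fold differences, this 0 is not evidence of equal levels between the mice. With library totals, 8 and 3 members were highest in replicates 1 and 3. The choices added after seeing the data were those for pairs, for the levels of single members and for the longest transcript. No paired analysis was possible because there is 1 group. At this depth, levels under about 0.02 CPM could not be told from 0.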
